A study of Mus musculus with 20 samples.

Results

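Immediate early genes are transcribed within minutes of a stimulus without new protein synthesis, and in the brain they serve both as a readout of neuronal firing and as a mark of cells stressed while tissue is taken apart. The 10 genes described here, found by symbol among the 31053 genes of the feature set, were Fos, Fosb, Jun and Junb (subunits of the transcription factor AP-1), Atf3 (a stress-induced partner of the same protein family), Egr1 (a zinc finger factor induced by synaptic activity), Nr4a1 (an orphan nuclear receptor), Ier2 (a short-lived nuclear protein), Dusp1 (a phosphatase that switches off MAP kinases) and Btg2 (an antiproliferative cofactor). Fos, Egr1 and their partners are induced by serum response factor and by CREB, which binds the cAMP response element. They rise in neurons that have fired, and also in vascular and glial cells during warm enzymatic digestion.

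The genes were followed in single-cell libraries of the basolateral amygdala (BLA) of wild-type C57BL/6 mice, 13 weeks old by the labels and male by the study's methods. Mice drank corticosterone (CORT) at 35 µg/ml for 6 weeks or the control solution BCD, named in the methods as a cyclodextrin vehicle although another passage speaks of plain drinking water, and received ketamine (Ket) at 10 mg/kg or saline (Sal) 24 h before the brain was taken. Each of the 10 libraries came from 1 mouse. Controls without ketamine (BCD/Sal) were mice 9901 and 9947. Controls with ketamine (BCD/Ket) were mice 9946, 9949 and 9986. The CORT/Sal group held mice 9969 and 9970, and the CORT/Ket group mice 9967, 9968 and 9971. All samples shared enzymatic dissociation before capture on the 10x Chromium platform, and whether a transcription inhibitor was used is not given in the sources used here.

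Of 28722 barcodes, 8305 passed the study's limit on mitochondrial UMIs and a minimum of 200 genes, and 5702 of these fell in 11 cell classes. Classes were rebuilt from marker genes, so each name below is short for a cell that is like it: endothelial cells carried all 13 listed markers (Cldn5, Ly6c1, Flt1 and others), microglia all 13 (P2ry12, Tmem119), astrocytes all 14 (Aqp4, Gja1), and all 4 excitatory clusters Slc17a7 and Nptx1. The border-associated macrophage class also held 7 of 8 fibroblast markers beside 9 of 16 of its own, so its values cannot be assigned to immune cells alone. A further 2603 barcodes stayed unnamed, 2351 of them from CORT/Sal mouse 9970, whose library was led by Bc1, Ddn and haemoglobin genes and gave 10 endothelial cells, 0 microglia and 0 astrocytes. Libraries of mice 9946 (BCD/Ket), 9947 (BCD/Sal) and 9967 (CORT/Ket) also stood apart, with 0, 0 and 3 microglia against 118 to 171 in the 6 libraries other than 9970. These 3 are called the libraries with few microglia below, and mouse 9970 is named apart from them. Libraries held 811628 to 7281768 UMIs, and 21 of 8280 distinct barcodes occurred in more than 1 library.

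Promoter sequence is shown for Fos as the namesake of the group, for Atf3 as the gene with the highest difference between classes, and for Dusp1 and Btg2 as the holders of a complete cAMP response element. Upstream windows of 250 bases from RefSeq (GRCm38.p6) were matched for 8 of the 10 genes, not for Egr1 and Ier2. Letters TGACG, the core of the cAMP response element read on either strand, stood in 7 of the 8 windows (Fos, Fosb, Junb, Dusp1, Btg2, Atf3 and Nr4a1, not Jun) against 17.8% of all 32851 promoter windows. The windows below lie at chr12:85473640-85473889 on the plus strand (Fos), chr17:26508473-26508722 on the minus strand (Dusp1), chr1:134079156-134079405 on the minus strand (Btg2) and chr1:191183334-191183583 on the minus strand (Atf3). Each is printed 5′ to 3′ in the direction of its gene and ends at the last base before the start, with every TGACG or its reverse complement in capitals:
Fos: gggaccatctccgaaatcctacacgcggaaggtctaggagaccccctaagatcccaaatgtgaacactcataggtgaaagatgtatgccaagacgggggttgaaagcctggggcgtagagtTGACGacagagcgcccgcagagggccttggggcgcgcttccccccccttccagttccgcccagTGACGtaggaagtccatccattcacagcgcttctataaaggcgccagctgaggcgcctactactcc
Dusp1: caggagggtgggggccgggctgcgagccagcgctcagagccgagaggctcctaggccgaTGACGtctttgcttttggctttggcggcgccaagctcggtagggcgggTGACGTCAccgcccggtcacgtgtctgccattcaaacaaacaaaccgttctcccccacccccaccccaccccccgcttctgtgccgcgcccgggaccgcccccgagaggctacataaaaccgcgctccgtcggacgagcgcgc
Btg2: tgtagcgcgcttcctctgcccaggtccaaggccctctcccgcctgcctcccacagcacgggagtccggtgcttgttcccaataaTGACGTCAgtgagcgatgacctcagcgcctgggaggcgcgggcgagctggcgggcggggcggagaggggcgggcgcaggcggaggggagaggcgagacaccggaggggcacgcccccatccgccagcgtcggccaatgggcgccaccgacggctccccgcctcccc
Atf3: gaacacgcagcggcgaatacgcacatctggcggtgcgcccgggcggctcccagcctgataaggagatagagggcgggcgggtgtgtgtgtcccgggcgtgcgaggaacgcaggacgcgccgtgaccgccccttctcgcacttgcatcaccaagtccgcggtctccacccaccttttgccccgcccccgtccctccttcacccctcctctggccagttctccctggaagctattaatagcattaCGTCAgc

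Fos held 2 such cores, 129 and 66 bases before its start, and the single core of Atf3 lay 7 bases before its start. Dusp1 and Btg2 held the complete palindrome TGACGTCA, which contains the core on both strands and occurred in 1.55% of all windows. The EGR site GCGNGGGCG was in 3 of the 8 windows (Fosb, Btg2 and Nr4a1) against 4.70% of all windows. The AP-1 site TGANTCA was in 0 of 8 against 6.75%, and the CArG box in 0 against 1.47%. All motifs were searched on both strands. A match describes letters in a window and not binding. Sequence beyond the 250 bases was not searched, so a motif missing from a window may still lie further upstream.

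The 10 genes were highest in blood vessel cells. Their summed level, in CPM (UMIs of a gene scaled to the total UMIs of its class in a library), was 4741 ± 3602 (SD, n = 10 libraries) in endothelial cells and 2328 ± 1573 (n = 6) in pericytes and smooth muscle cells. Next came border-associated macrophages and immune cells (832 ± 544, n = 7), excitatory neurons (610 ± 369, n = 9), microglia (508 ± 96.6, n = 6) and striatal projection neurons (401 ± 325, n = 7). Lowest were oligodendrocytes (266 ± 122, n = 8), oligodendrocyte precursor cells (257 ± 66.4, n = 6), astrocytes (160 ± 38.8, n = 6) and GABAergic interneurons (126 ± 82.1, n = 6). Ranges of neighbours in this order overlapped throughout, so no neighbouring pair was set apart by its spread. Without the 3 libraries with few microglia the means were 6529 CPM in endothelial cells, 485 in excitatory neurons, 309 in oligodendrocytes, 231 in striatal projection neurons and 116 in GABAergic interneurons, so microglia then stood above excitatory neurons, and oligodendrocytes and their precursor cells above striatal projection neurons. The striatal mean also moved to 842 CPM with clusters drawn at a resolution of 0.4. Ependymal and choroid plexus cells were seen in too few libraries to test.

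**Figure D1:**
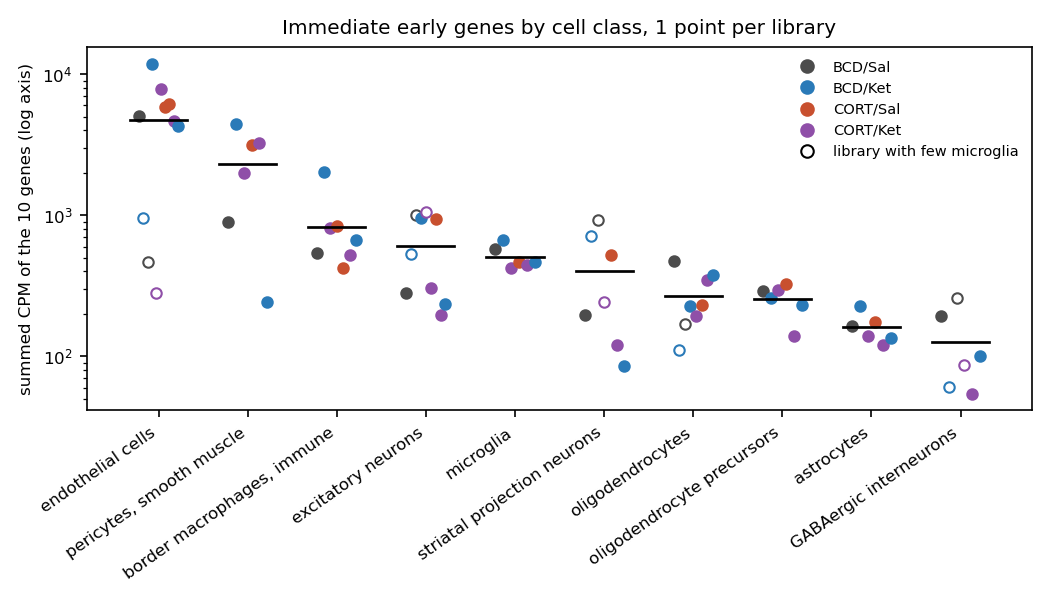
Summed CPM of the 10 immediate early genes (log axis) by cell class, 1 point per library, coloured by treatment, with a line at the mean over libraries. Open points are the 3 libraries with few microglia. Endothelial cells reach 11899 CPM in 1 library, and the open points of that class lie below all of its filled points.

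Endothelial cells line the vessels and form the blood-brain barrier. Their summed level was 5039 CPM in mouse 9901 (BCD/Sal). It was 11899 and 4301 in mice 9949 and 9986 (BCD/Ket), 5847 and 6137 in mice 9969 and 9970 (CORT/Sal), and 7845 and 4638 in mice 9968 and 9971 (CORT/Ket). In the 3 libraries with few microglia it was 470 (BCD/Sal 9947), 957 (BCD/Ket 9946) and 281 (CORT/Ket 9967). These 3 values did not overlap with the other 7, and each fell in a different treatment group. Of the endothelial markers, Cldn5 was at 4426, 4119 and 5520 CPM there against 2860 to 7286 in the other 7 libraries, and Ly6c1 at 1687 (9947), 3189 (9946) and 1731 (9967) against 1938 to 3917. Their endothelial cells were shallow, with a median of 470 to 682 UMIs against 1216 to 2688 in 6 of the others, and the 10 cells of mouse 9970 were shallower still (290 UMIs, with 19 UMIs of the 10 genes in all). Summed pericyte markers in endothelial cells were 1248 to 2760 CPM in the 3 libraries and 911 to 2292 in the 7, and those of excitatory neurons 310 to 374 and 362 to 784. Oligodendrocyte markers were at 561 to 1440 CPM in the 3 and 323 to 810 in the 7. Erythroid markers were at 0 to 72.9 CPM in the 3 and 10.4 to 31288 in the 7, with the highest values in mice 9986, 9968 (13491) and 9949 (4706). The part of depth, library or other cells in this difference was not tested.

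Within a mouse, endothelial cells stood above every glial and vascular class in every library with at least 10 cells of both. Below that minimum the order did not always hold. Microglia of mouse 9967 and the precursor cell of mouse 9946 lay above the endothelial cells of their library. The minimum kept all 3 libraries with few microglia out of the comparisons with astrocytes, microglia, and pericytes and smooth muscle cells. Those comparisons thus covered only libraries with high endothelial levels. The ratio to astrocytes was 30.7 to 56.6 in 6 of 6 libraries, to microglia 8.69 to 18.7 in 6 of 6, to oligodendrocytes 2.76 to 52.3 in 8 of 8, and to pericytes and smooth muscle cells 1.42 to 17.6 in 6 of 6. Against excitatory neurons endothelial cells were higher in 7 of 9 libraries, with ratios from 0.266 to 25.7. The exceptions were BCD/Sal mouse 9947 and CORT/Ket mouse 9967, both among the 3 libraries with few microglia.

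Gene by gene, endothelial cells exceeded excitatory neurons, the main glutamatergic output cells of the BLA, in 9 of 10 genes. The test was edgeR's quasi-likelihood fit of all classes with the mouse as a block, and p-values were adjusted by Benjamini-Hochberg over the 6440 genes tested. Of all genes tested, 34% were higher and 41% lower in endothelial cells, and the median log2 difference was 4.08 over the 10 genes against -0.12 over all genes. In such sums more RNA in each cell cannot be told apart from more cells that express a gene. Among the 9 genes, Atf3 had 1 neuronal UMI, Ier2 12, Fosb 32, Fos 65 and Nr4a1 85, over all 9 neuronal libraries. These genes could pass the filter on low counts only through other classes, where they were higher. Their calls thus follow in part from the filter, and their p-values are not independent of it. The same holds for those of them called in pericytes and smooth muscle cells below. With RLE in place of TMM factors the median of all genes moved by -0.41 and the same 9 calls were made.

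Among the AP-1 genes, Fos was at 862 CPM in endothelial cells of mouse 9901 (BCD/Sal), 1662 and 615 in mice 9949 and 9986 (BCD/Ket), 757 and 969 in mice 9969 and 9970 (CORT/Sal), and 879 and 685 in mice 9968 and 9971 (CORT/Ket). In endothelial cells of mice 9946, 9947 and 9967 Fos was at 9.11, 0 and 0 CPM, where 3 counts would have been 27.3, 83.0 and 140 CPM. Excitatory neurons reached 79.1 CPM of Fos at most, in mouse 9967, so the 7 other endothelial values all lay above all 9 neuronal ones. Over all libraries Fos was higher in endothelial cells by 4.55 ± 0.44 (log2, SE; adjusted p = 1.21e-13). Fosb was higher by 4.46 ± 0.35 (5.80e-17), Jun by 3.53 ± 0.32 (8.09e-15) and Junb by 2.79 ± 0.28 (2.73e-13) in the same test. Jun had the highest mean CPM of the 10 in endothelial cells, at 1091 ± 756 CPM (n = 10) against 84.7 ± 31.6 (n = 9) in excitatory neurons, and UMI counts are not divided by transcript length.

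Atf3, which is induced by tissue stress, had the highest fitted difference of the 10 genes between these classes (log2 7.29), a value that rests on 1 neuronal UMI. It had 746 UMIs in endothelial cells and 1 UMI among 2347709 in excitatory neurons, a count ratio of 733 with an exact interval of 131 to 28992 that covers counting error only. Endothelial Atf3 was at 118 CPM (mouse 9986) to 586 CPM (mouse 9949) in 6 libraries, at 323 CPM on 1 UMI in mouse 9970, and at 0 to 27.7 CPM in the 3 libraries with few microglia. Atf3 had 0 UMIs in striatal projection neurons, oligodendrocytes, oligodendrocyte precursor cells, astrocytes and GABAergic interneurons.

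The other 4 genes called in endothelial cells span a nuclear receptor, a phosphatase and cofactors. Ier2 was higher in endothelial cells by 6.07 ± 0.34 (log2, SE; adjusted p = 3.52e-27), Dusp1 by 4.13 ± 0.27 (1.29e-23), Btg2 by 4.03 ± 0.27 (9.24e-23) and Nr4a1 by 1.82 ± 0.36 (1.07e-05) in the edgeR test. Ier2 was nearly silent in neurons, at 5.81 ± 5.53 CPM against 427 ± 340 in endothelial cells. The call for Nr4a1 was lost with DESeq2, at a log2 difference of 1.17.

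**Figure D2:**
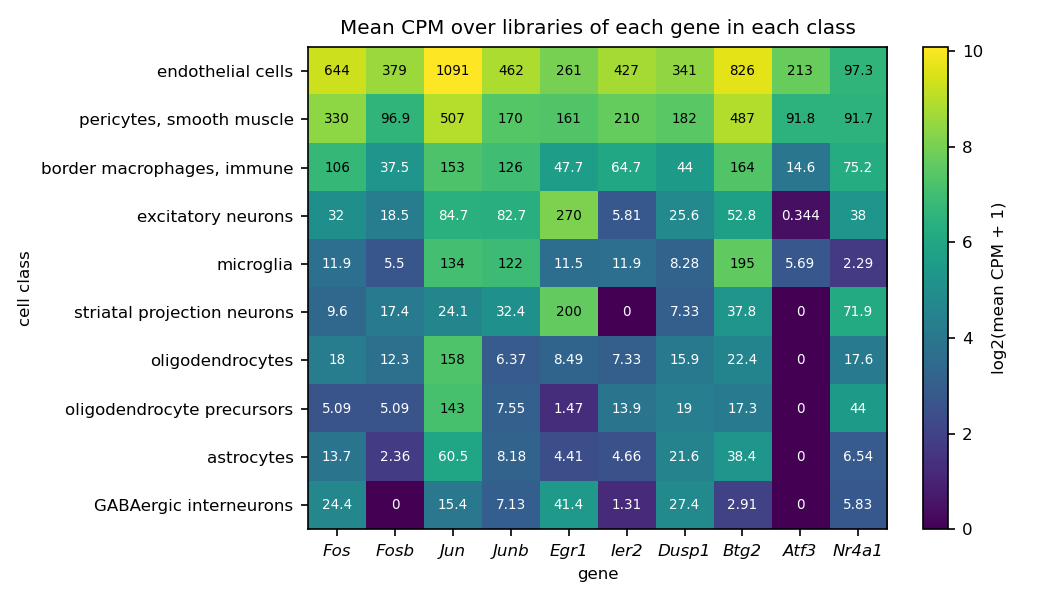
Mean CPM over libraries of each of the 10 genes (columns) in each cell class (rows), coloured by log2(mean CPM + 1). Endothelial cells are high in most genes but not above excitatory neurons in Egr1 (261 against 270 CPM), and in excitatory and striatal neurons Egr1 stands above the other genes.

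Egr1 was the exception in the main fit. It was at 270 ± 243 CPM (n = 9) in excitatory neurons and 261 ± 226 (n = 10) in endothelial cells, a log2 difference of 0.75 ± 0.37 that missed the threshold (edgeR, adjusted p = 0.061). Neuronal Egr1 was 331, 594 and 703 CPM in mice 9946, 9947 and 9967, the libraries with few microglia, and 80.6, 268, 59.9, 292, 58.2 and 44.0 in mice 9901, 9949, 9986, 9969, 9968 and 9971. Endothelial Egr1 in those 3 libraries was 9.11, 0 and 0, and in the 6 it was 438, 732, 287, 260, 308 and 250 CPM. The order of the classes was thus opposite in the 3 libraries and in 5 of the 6 others, mouse 9969 being the exception. Egr1 passed the threshold, higher in endothelial cells, with no filter on low counts, at least 500 genes or a mitochondrial limit of 5% or 25%. It also did so without mouse 9946, 9947 or 9967 alone. Leaving out the 3 libraries was chosen after seeing the data and removed those with the opposite order. Egr1 was then higher in endothelial cells by 1.88 ± 0.28 (log2, SE), and all 10 genes were called higher. For Egr1 that outcome follows from the choice, so it is no separate test of the difference. The share of all genes called under that setting is not given here.

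The neurons of the 3 libraries were not the same clusters as those of the others. A cluster of 167 excitatory cells led by Hs3st2, Tbr1, Slc17a6 and Nrgn held 153 of their cells, with a median of 3246 UMIs and Egr1 at 525 CPM. Excitatory clusters of 309, 183 and 121 cells held 1, 0 and 0 of them, with Egr1 at 21.2, 32.3 and 185 CPM. Striatal projection neurons, GABAergic cells that carry Drd1 and Penk, split in the same way, with 74 of 75 cells of 1 cluster from the 3 libraries and Egr1 at 470 CPM there against 108 in the other cluster. Neuron type, depth and library cannot be told apart in this contrast.

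**Figure D3:**
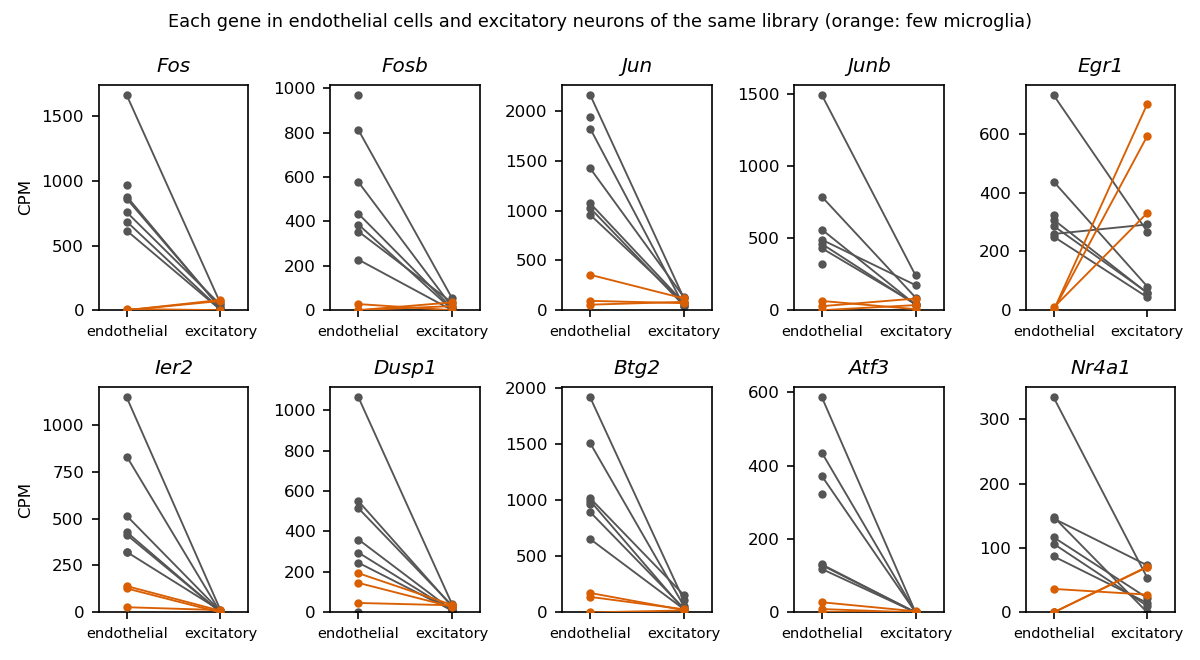
CPM of each of the 10 genes in endothelial cells (left) and excitatory neurons (right) of the same library, joined by a line, with the 3 libraries with few microglia in orange. In grey libraries most lines fall from endothelial cells to neurons, with mouse 9969's Egr1 (260 to 292 CPM) an exception, and for Egr1 the orange lines rise to 331, 594 and 703 CPM in neurons.

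Pericytes and smooth muscle cells, the contractile cells around vessels, came next. Their summed level was 892 CPM in mouse 9901 (BCD/Sal), 4406 and 244 in mice 9949 and 9986 (BCD/Ket), 3150 in mouse 9969 (CORT/Sal), and 2010 and 3263 in mice 9968 and 9971 (CORT/Ket). BCD/Ket alone thus held both the highest and the lowest library. Against excitatory neurons 8 of the 10 genes were higher and 0 lower, with 31.8% of all genes higher and 34.3% lower. Ier2 differed by 4.53 ± 0.43 (log2, SE; adjusted p = 2.25e-15), Btg2 by 2.75 ± 0.30 (7.65e-13) and Dusp1 by 2.74 ± 0.35 (1.30e-10) in edgeR, and Atf3 had 69 UMIs, a count ratio of 236 (41.0 to 9472). Egr1 (-0.20 ± 0.51) and Nr4a1 (1.01 ± 0.49) were not called. The call for Junb (0.83) was kept in only 9 of 22 alternatives. With clusters drawn at a resolution of 0.4, 4 of the 10 genes were higher, beside 1422 of all 6923 genes tested there. The calls for Jun, Fosb, Fos and Junb were then lost, and the median over the 10 genes went from 2.48 to 0.99.

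Microglia and border-associated macrophages are resident immune cells of the brain, though the class named for the latter here also held fibroblast markers. In microglia Btg2, at 134 to 240 CPM over 6 libraries, was higher than in excitatory neurons by 1.70 ± 0.30 (log2, SE; edgeR adjusted p = 6.74e-07), while Egr1 (log2 -3.92), Nr4a1 (-3.51) and Dusp1 (-1.37) were lower. That is 1 gene higher and 3 lower, against 31.2% and 40.5% of all genes. The call for Dusp1 was kept in 13 of 23 alternatives, with an adjusted p of up to 0.705. Btg2 made up 39.3% of the UMIs of the 10 genes in microglia and 18.0% in endothelial cells. Border-associated macrophages and immune cells had Ier2 (2.996 ± 0.64, edgeR adjusted p = 5.22e-05) and Btg2 (1.09 ± 0.41, 0.0205) higher and 0 lower, with 24.2% and 33.4% of all genes. The call for Btg2 there was kept in 14 of 19 alternatives, with an adjusted p of up to 0.150. RLE factors gave 1 higher and 1 lower, beside 1364 and 2597 of all 6440 genes. DESeq2 gave 2 and 1, beside 1361 and 2526. Without the 3 libraries with few microglia, 3 genes were higher and 2 lower in microglia. In border-associated macrophages and immune cells 4 were then higher and 0 lower. Shares of all genes under that setting are not given here, so these counts are not set against a background.

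In astrocytes and the oligodendrocyte lineage Egr1 and Junb were lower than in excitatory neurons. Astrocytes were lower in 4 genes and higher in 0, with 34.6% and 31.3% of all genes: Egr1 at -5.01 ± 0.73 (log2, SE; edgeR adjusted p = 2.60e-08), Junb at -3.17, Fosb at -2.68 and Nr4a1 at -2.34. Oligodendrocyte precursor cells were lower in 4 (Egr1, Junb, Btg2 and Fos) and higher in 0, with 27.9% and 22.1%. The call for Fos rests on 2 UMIs in precursor cells and was kept in 13 of 23 alternatives, with an adjusted p of up to 0.114. Their 1 UMI of Egr1 against 523 in neurons gave a count ratio of 0.00673 (0.00017 to 0.0376). Oligodendrocytes were lower in 3 (Egr1, Junb and Btg2) and higher in 0, with 39.8% and 28%. Jun gave the highest share in these cells, with 60.0% of the UMIs of the 10 genes in oligodendrocytes, 56.7% in precursor cells and 39.7% in astrocytes.

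In the other neurons few of the genes passed the test. In GABAergic interneurons only Egr1 did, at -2.68 ± 0.77 (log2 with SE, edgeR adjusted p = 0.00827). Thus 1 of 10 genes was lower and 0 higher, with 15.3% and 3.06% of all genes. The call was kept in 18 of 20 alternatives, with an adjusted p of up to 0.087, and was lost without mouse 9947 or mouse 9967. At a mitochondrial limit of 25%, 6 of the genes were lower, beside 1603 of all 8310 genes tested. In striatal projection neurons 0 genes were higher and 0 lower, with 2.16% and 14% of all genes, while Jun alone had an unadjusted p under 0.05 (log2 -1.99 ± 0.75, edgeR adjusted p = 0.0607) and DESeq2 called 0. Egr1 there was 497, 500 and 202 CPM in mice 9946, 9947 and 9967 and 0 to 112 in the other 4 libraries. Egr1 formed 38.1% ± 18.9 (SD, n = 9) of the UMIs of the 10 genes in excitatory neurons and 5.18% ± 2.43 (n = 7 libraries with enough UMIs) in endothelial cells.

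Single cells showed how far the genes came together. In endothelial cells 5 or more of the 10 genes had a UMI in the same cell in 27.0% of cells of mouse 9901, 61.0% of 9949, 25.8% of 9986, 35.9% of 9969, 47.1% of 9968 and 28.2% of 9971. In the libraries with few microglia this was 0%, 0% and 0.680% (mice 9947, 9967 and 9946), and in mouse 9970 it was 0 of 10 cells. Pericytes and smooth muscle cells reached 23.3% (mouse 9949), excitatory neurons 16.3% (mouse 9969) and microglia 1.56%. Cells with none of the 10 genes still made up 10.3% to 42.5% of endothelial cells in the 6 well-covered libraries, the lowest in mouse 9949 and the highest in mouse 9901. These shares are not thinned, and a cell without a UMI of a gene may still express it.

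**Figure D4:**
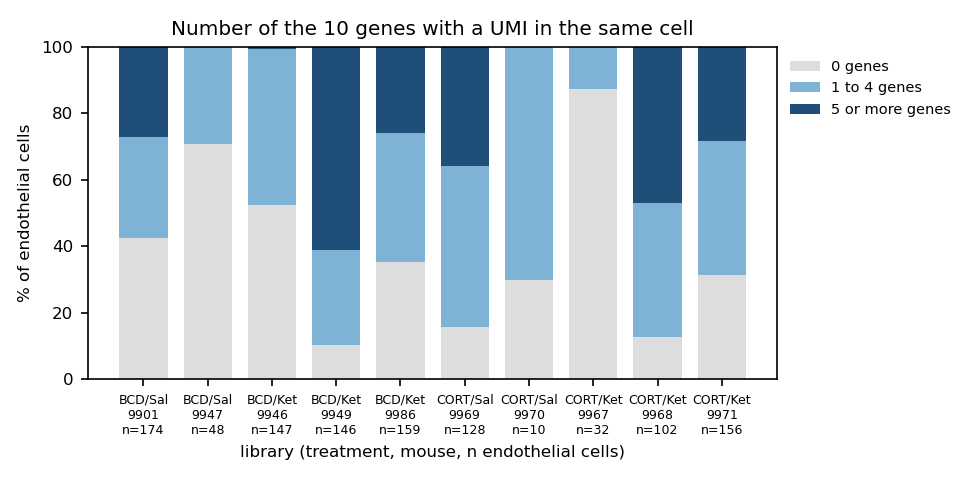
Share of endothelial cells (%) with a UMI of 0, 1 to 4, or 5 or more of the 10 genes, 1 bar per library with its treatment, mouse and number of cells. The dark share is 25.8% to 61.0% in 6 libraries and under 1% in the 3 libraries with few microglia and in mouse 9970.

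Cells differed in depth, so shares of cells were compared after thinning. With each cell thinned to 500 UMIs, a UMI of any of the 10 genes was expected in 45.6% of endothelial cells (61.1% unthinned), 30.5% of pericytes and smooth muscle cells (57.0%), 20.02% of microglia (52.5%), 16.2% of excitatory neurons (43.4%) and 6.97% of astrocytes (23.7%). Thinning left out 79 of 1102 endothelial cells and 4 of 778 excitatory neurons. A library left with fewer than 10 cells of a class, such as mouse 9970 for endothelial cells, entered the unthinned mean only. For single genes a low class served as background: Fos was seen in 13.6% of thinned endothelial cells (22.1% unthinned, median 1370 UMIs) and in 0.102% of precursor cells (0.219%, median 1164.5 UMIs), and Egr1 in 8.29% of excitatory neurons (26.5%) and 0.0600% of precursor cells (0.231%).

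Beyond the 10 genes, 3 lists were read in the same test, where 34% of all genes were higher and 41% lower in endothelial cells. Of a list of 31 heat shock and early response genes known to rise on dissociation, 22 were tested. Among these 22, 18 were higher and 2 lower in endothelial cells than in excitatory neurons (median log2 3.004). Klf2 and Klf4, vascular zinc finger factors that are also high in resting endothelium, led with 7.90 ± 0.29 and 7.67 ± 0.31, followed by Zfp36 (7.28 ± 0.34), which destabilizes short-lived mRNAs, while the chaperones Hsph1 and Hsp90aa1 were lower (-1.71 and -0.94). Of 10 neuronal activity genes 5 were tested, Arc and Npas4 not among them. Of these 5, 4 were lower (Bdnf -7.07, Vgf -6.40, Scg2 -5.50 and Homer1 -3.06) and 1 higher (Plk2, 0.66 ± 0.21). Among the 6 that were tested of 17 paralogs of the 10 genes, Btg1, Ier5, Jund, Nr4a2 and Dusp6 were higher, and Egr3 was not called (-0.51 ± 0.25). Of the 22 dissociation genes, 16 were higher and 2 lower in pericytes and smooth muscle cells. In border-associated macrophages and immune cells 14 were higher and 0 lower. In oligodendrocytes 12 were higher and 3 lower, and in microglia 10 and 2. Of all genes 31.8%, 24.2%, 28% and 31.2% were higher in these classes. In each remaining class more of the 22 were lower than higher. The filter on low counts decided which genes were tested, and a gene high in only some classes could pass it. These counts thus describe the tested genes and not whole lists. The summed dissociation list was 5567 to 8465 CPM in endothelial cells of the 3 libraries with few microglia and 8581 to 20360 in the others.

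The genes whose log2(CPM + 10) varied most like the sum of the 10, over 74 sums of a class in a library with class means removed, were Zfp36 (Pearson r = 0.67), Apold1 (0.65), Ier3 (0.60), Mien1 (0.58), Sdhb (0.56), Dnajb1 (0.56), Cdkn1a (0.55), Ckb (0.55), Tpt1 (0.54) and Anapc13 (0.53), among 4614 genes with a median r of 0.02. Zfp36, Ier3 and Dnajb1 were on the dissociation list. The sums share libraries and depth, so these are descriptions.

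None of the 10 genes passed a test between treatments in any class and contrast that could be tested, with edgeR or DESeq2. A contrast was tested only where each of its groups had enough libraries with the class. CORT/Sal against BCD/Sal was thus tested only in endothelial cells. CORT/Ket against CORT/Sal was tested only there and in border-associated macrophages and immune cells. In GABAergic interneurons none of the 10 genes was tested between treatments. In endothelial cells the summed CPM given above ran from 470 to 5039 under BCD/Sal. It ran from 957 to 11899 under BCD/Ket, from 5847 to 6137 under CORT/Sal and from 281 to 7845 under CORT/Ket, so every pair of groups overlapped except CORT/Sal and BCD/Sal. BCD/Sal, BCD/Ket and CORT/Ket each held 1 of the 3 libraries with few microglia, and the higher CORT/Sal value came from the 10 cells of mouse 9970. Without the 3, BCD/Sal was left at 1 library (5039), BCD/Ket at 4301 and 11899, and CORT/Ket at 4638 and 7845, and these ranges overlapped with CORT/Sal in both ketamine groups. In excitatory neurons the values were 283 and 999 (BCD/Sal), 531, 950 and 236 (BCD/Ket), 940 (CORT/Sal) and 1055, 305 and 195 (CORT/Ket), with full overlap.

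Over 17 fits of a class and contrast with at least 1 of the genes tested, 0 of 103 tests passed an adjusted p of 0.05 with edgeR's quasi-likelihood test, 2 had an unadjusted p under 0.05 (Fos in microglia and in astrocytes, both CORT/Ket against BCD/Ket) and 0 passed with DESeq2. The share of all genes called was 0% in 11 of these fits, 0.0919% in endothelial cells for both CORT/Sal against BCD/Sal and CORT/Ket against BCD/Ket, 0.0284% in oligodendrocytes for BCD/Ket against BCD/Sal and for CORT/Ket against BCD/Ket, 0.0326% in pericytes and smooth muscle cells and 0.425% in border-associated macrophages and immune cells for CORT/Ket against BCD/Ket. The errors were large: endothelial Ier2 differed by 1.16 ± 0.66 (log2, SE; edgeR adjusted p = 0.999) for BCD/Ket against BCD/Sal, and Fos by 0.80 ± 1.94. At 2 or 3 mice a group, differences of the size of these errors were not detectable.

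**Figure D5:**
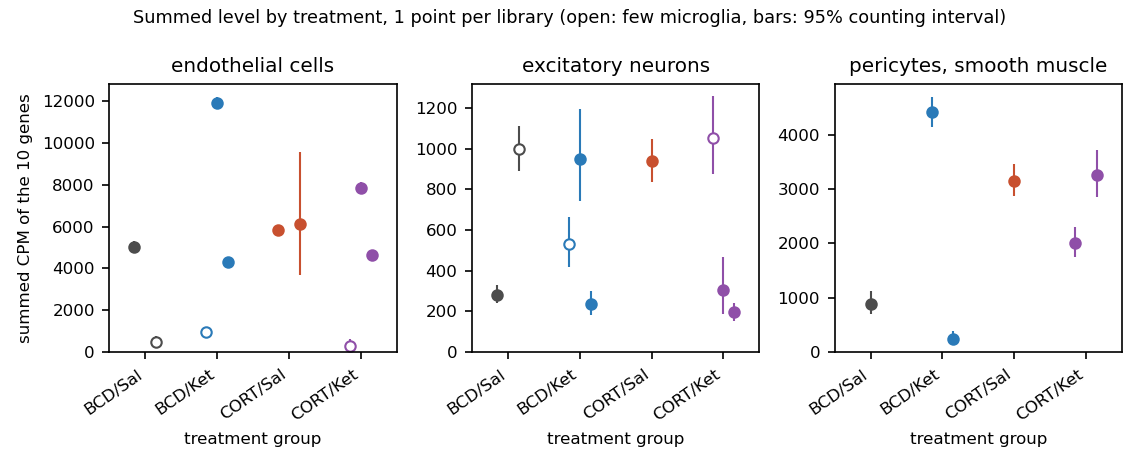
Summed CPM of the 10 genes by treatment group in endothelial cells, excitatory neurons, and pericytes and smooth muscle cells, 1 point per library with its 95% counting interval, open for libraries with few microglia. In endothelial cells each open point lies below 1000 CPM whatever its group.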

How the data were processed

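Of the series' samples, only the 10 from the BLA entered, and those from the mPFC were left out. The deposited values are raw counts of UMIs per gene and barcode, made by the authors with Cell Ranger and analysed with Seurat 3.1.1 (submitters' processing notes). The labels give the build as mm9, and gene identifiers go beyond its annotation. The extraction text in the labels speaks of prefrontal cortices for all samples, and the tissue label BLA was followed. Replicates are separate mice. No batch is named.

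Barcodes were kept at or under the mitochondrial share the study states and at least 200 genes, and clustered with scanpy 1.11.5 and leidenalg 0.10.2 (2000 variable genes without the 10 genes, 30 components, 20 neighbours, resolution 0.8). A cluster took the class with most markers at 4-fold or more in at least 5% of cells, with at least 3 markers. Clusters of 200 or more cells with over 90% from 1 library stayed unnamed. This naming rule was set after the clusters were seen. No doublets were removed. Cells left by the filters number 135 to 2397 per library.

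Counts were summed per mouse and class (at least 10 cells) and tested with edgeR 4.0.16 (TMM, filterByExpr, quasi-likelihood, Benjamini-Hochberg, threshold 0.05) in R 4.3.3, with mouse as a block between classes because classes of 1 mouse share its library, and with treatment alone within a class. DESeq2 1.42.0 was an alternative. The tests were also run on simulated counts with a shared expression profile and a fixed spread. The simulated counts lacked the differences between libraries seen here, so they do not check the tests under those differences. Each SE beside an edgeR difference is the absolute log2 difference divided by the square root of its quasi-likelihood F statistic, not a fitted standard error. Intervals are 95% exact Poisson, floors are 3 counts, and both cover counting error only. Members and gene lists were chosen with earlier results of these data known. The named genes are the 10, those of the paralog, activity and dissociation lists that passed the threshold or had the highest CPM, and the 10 most alike in pattern.

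Alternatives were DESeq2, RLE factors, all genes without a count filter, no mouse block, at least 30 cells or 500 genes, other mitochondrial limits, resolutions of 0.4 and 1.2, the 10 genes kept in the clustering, the highest Scrublet scores removed (85 barcodes), shares at 1000 UMIs, each library left out in turn and, chosen after seeing the data, the 3 libraries with few microglia left out.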

Additional observations from a re-analysis of the deposited data

Results flagged for a closer look

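BCD/Ket mouse 9949 stood apart from the other libraries in several values. Its endothelial Junb was 1489 CPM (0 to 785 in the other 9 libraries), its Dusp1 1062 CPM (0 to 550) and its Nr4a1 334 CPM (0 to 148), and its summed level of the 10 genes in border-associated macrophages and immune cells was 2016 CPM (421 to 841 in the other 6 libraries). In that class Nr4a1 had 14 UMIs in 21 cells. Atf3 in excitatory neurons was 3.09 CPM in BCD/Sal mouse 9947, which is 1 UMI, and 0 in the other 8 libraries. Among 30 groups examined, the flagged ones had a gap to the nearest library, as a share of the range, above a cutoff. That cutoff depends on the number of libraries. Chance passes it in about 1 group in 20 where values are normally spread, which Atf3 counts of 0 and 1 are not. Groups of 2 or 3 mice were not examined.

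Barcodes outside the comparisons also carried the genes. The 2351 unnamed barcodes of CORT/Sal mouse 9970 had a summed level of 419 CPM. Barcodes beyond the mitochondrial or gene limits had 246 (CORT/Ket mouse 9967) to 615 (BCD/Sal mouse 9947) CPM of the 10 genes among nuclear genes in the 9 libraries other than 9970.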

How the results depend on the processing

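Between classes, 20 calls of a gene in a class were higher and 15 lower than in excitatory neurons over 90 tests. Of all genes, 2.16% (striatal projection neurons) to 34% (endothelial cells) were higher by class. From 14% (striatal projection neurons) to 41% (endothelial cells) were lower. The 20 and 15 calls alone thus do not show an excess over all genes. Of the 35 calls 23 held in every alternative that tested them, 12 were lost in at least 1, and 1 changed sign. The counts of calls under the alternatives below are summed over classes without shares of all genes, so they show no excess either. As background in endothelial cells, 2062 genes were higher and 2542 lower of 6440 without the mouse block. There were 1171 and 988 of 2961 with mitochondrial UMIs of at most 5%, and 2878 and 3098 of 8310 at 25%. With no filter on low counts there were 3985 and 4637 of 19903. Without the mouse as a block the paired fit gave way to 23 higher and 14 lower. The counts were 13 and 7 with mitochondrial UMIs of at most 5%, which left 4 classes, 27 lower at 25%, and 26 lower with no filter on low counts. Leaving out 1 library gave 18 to 24 higher and 12 to 17 lower, and leaving out the 3 libraries with few microglia (chosen after seeing the data) gave 27 and 12 over 7 classes. RLE factors moved the median of all genes by -0.41 (endothelial cells) to 0.47 (GABAergic interneurons) and gave 18 and 17. In pericytes and smooth muscle cells Junb turned to -0.51 and Nr4a1 to -0.39 at resolution 0.4, and Egr1 turned to 0.13 with at least 500 genes, to 0.042 without mouse 9967 (-0.48 to 0.042 over all libraries left out) and to 0.44 without the 3 libraries. The cause was not tested. Between treatments, 0 calls became 1 at resolution 0.4. Calls also appeared without BCD/Ket mouse 9949 or 9986, which each leave 1 BCD/Ket library, assumed to vary like the other groups. All were in pericytes and smooth muscle cells for CORT/Ket against BCD/Ket, and their shares of all genes are not given here.

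The summed level in striatal projection neurons was 842 CPM at resolution 0.4, over fewer libraries than in the main setting. With cells thinned to 1000 UMIs, shares with a UMI of the 10 genes were 68.6% in endothelial cells, 45.9% in pericytes and smooth muscle cells, 36.4% in microglia, 31.0% in border-associated macrophages and immune cells, 28.2% in excitatory neurons, 24.0% in oligodendrocyte precursor cells, 21.3% in striatal projection neurons, 17.5% in oligodendrocytes, 13.1% in astrocytes and 9.14% in GABAergic interneurons. Depth per cell limits these shares. They leave out cells under 1000 UMIs and libraries left with fewer than 10 such cells. They therefore cover other cells than the shares at 500 UMIs and the unthinned shares, and are not to be compared with those.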
